A study of Mus musculus with 12 samples.

Results

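The T cell receptor segments described here were picked as marks of the receptor transgenes of HY and OT1 thymocytes on an array. They comprise 7 of the 12488 probe sets in the deposited table. Of these, 3 are annotated to Trav9d-3, a variable segment of the receptor alpha chain, 2 to Trbv13-2, a variable segment of the beta chain, and 1 to Trgv1, a variable segment of the gamma chain. The last carries no gene name in the annotation used and is called the unnamed probe set. The members were chosen for their intensities in the 2 HY groups against OT1, so those differences are given as a description without a test. The choice did not rest on the comparison of the 2 HY groups with each other, though that comparison uses the same HY arrays. A choice on both HY groups against OT1 may favour probe sets on which those groups are alike.

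The 12 Affymetrix mouse arrays each measured thymocytes from RTOC, reaggregate thymic organ culture, in which thymocytes are mixed with thymic stroma and kept as a pellet. The OT1 group (n = 4 arrays) held thymocytes with the OT1 receptor at day 6, and its labels name no peptide. The HY_low group (n = 4) held thymocytes with the HY receptor at day 6 with Smcy peptide at 1e-07 M, and the HY_high group (n = 4) the same with Smcy at 1e-05 M. All 3 groups therefore carried a receptor transgene. Strain, age, sex, the state of the recombination genes and any sorting of the cells are not given in the sources used here. Titles number the arrays 1 to 4 in each group, and arrays of the same number were alike beyond their groups. Whether arrays of a group stem from separate cultures or animals is not stated, so any p-value here reflects the spread between these arrays alone, which may be technical, and their number limits the precision.

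A T cell receptor is a pair of chains, each of which starts as separate gene segments. A developing thymocyte joins a variable segment to joining segments and a constant region, so that each cell transcribes its own combination. A receptor transgene supplies chains that are already joined, and most thymocytes of such a mouse then carry the same variable segments. The HY receptor, which sees a peptide of the male antigen Smcy on a class I molecule, is built from an alpha segment of the Trav9 family and the beta segment Trbv13-2. The OT1 receptor, which sees a peptide of ovalbumin on a class I molecule, is built from segments of the Trav14 and Trbv12 families. Gamma chains pair with delta chains in a separate lineage of T cells.

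The label of transgene marks was not borne out for every probe set. In HY cells 2 Trav9d-3 probe sets, 1 Trbv13-2 probe set and Trgv1 lay higher on every array than in OT1, and the unnamed probe set lay lower. The last Trav9d-3 probe set was near the lowest value of the table everywhere, and the other Trbv13-2 probe set overlapped between the groups, with higher values in most OT1 arrays. Trgv1 belongs to neither receptor, and the unnamed probe set could be tied to none, so the probe sets that were higher in HY and carry the name of a segment family of its receptor are 3 of the 7. The members were chosen on this contrast, so that count supports nothing. Intensities in the table run upward from 1, with a median of 3.71, and a probe set below about 8 is called dim here. Levels of different probe sets cannot be set against each other, since probes differ in brightness. Of the probe sets of Trav9d-3 and Trbv13-2, 1 each has a suffix for probes shared by members of a gene family and is called the family probe set, and the brighter of the remaining Trav9d-3 probe sets and the remaining Trbv13-2 probe set are called the plain ones. The annotation does not say which part of a transcript the probes read, and receptor transcripts also hold a constant region, so a symbol may not be specific to its segment.

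**Figure D1:**
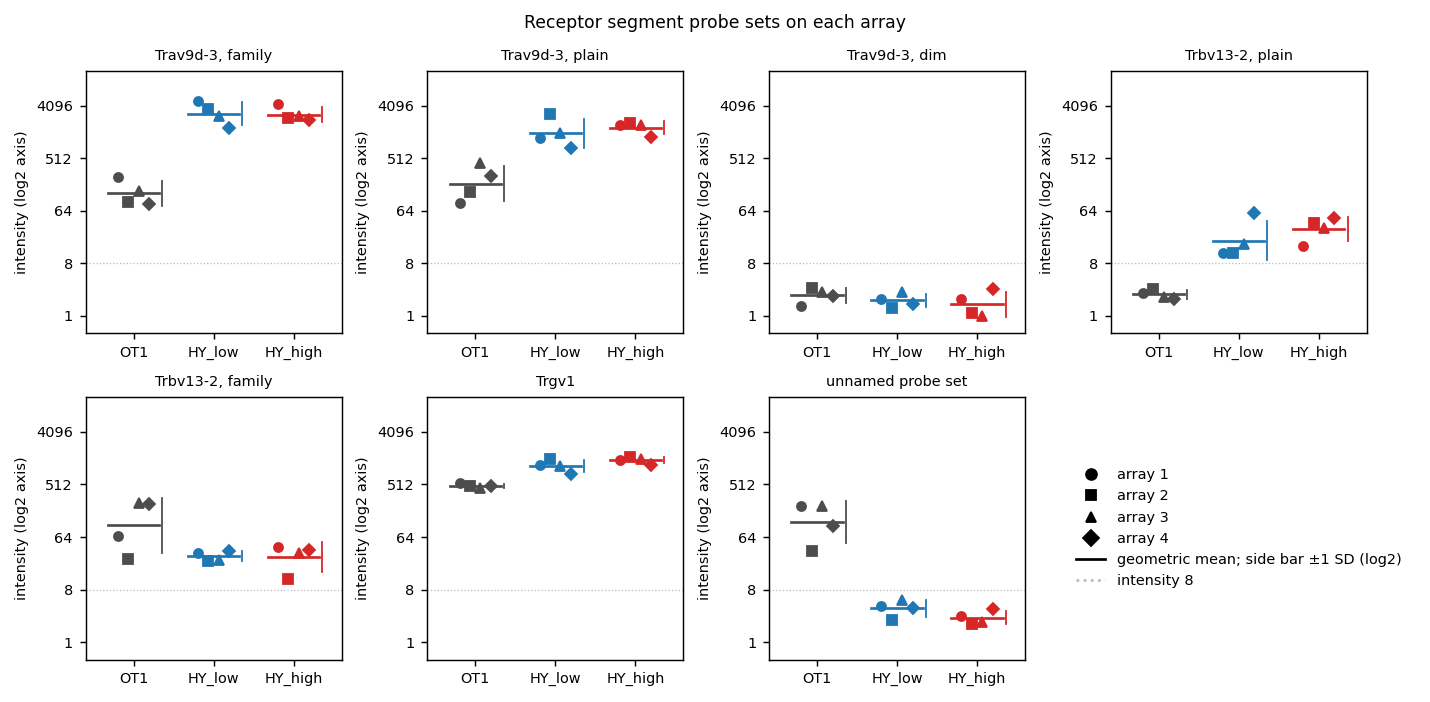
Deposited intensity (log2 axis) of the 7 probe sets on each of the 12 arrays, by group; symbols give the array number, horizontal bars the geometric mean, side bars 1 SD of the log2 values and the dotted line an intensity of 8. The HY arrays lie at 1673 to 4890 for the Trav9d-3 family probe set, above all OT1 arrays, and at 2.05 to 5.34 for the unnamed probe set, below all OT1 arrays.

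The alpha segment Trav9d-3 was bright in HY cells on its family probe set, which may read other members of the family as well. On OT1 arrays 1 to 4 it read 243, 91.4, 142 and 82.5. On the HY_low arrays it read 4890, 3523, 2711 and 1673, and on the HY_high arrays 4386, 2527, 2694 and 2312. Every HY array lay above every OT1 array, and array 1 was the brightest in each of the groups. The OT1 arrays had a geometric mean of 127, against 2973 for HY_low and 2883 for HY_high. The log2 difference from OT1 was 4.55 ± 0.45 (SE, n = 4 per group) in HY_low and 4.50 ± 0.45 in HY_high, or 23.4-fold and 22.7-fold. All OT1 arrays stood well above the dim range on this probe set. In these bulk samples fewer cells with a segment and less RNA of it per cell cannot be told apart.

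The plain Trav9d-3 probe set separated the groups less. It read 88.5, 134, 420 and 249 on OT1 arrays 1 to 4. In HY_low the values were 1149, 2925, 1394 and 756, and in HY_high 1914, 2066, 1896 and 1175. Again no HY array overlapped with OT1, but the gap was narrower, from 420 on OT1 array 3 to 756 on HY_low array 4. The log2 difference was 2.87 ± 0.51 in HY_low and 3.20 ± 0.51 in HY_high, or 7.31-fold and 9.18-fold.

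Within array numbers the alpha probe sets differed in how even their differences were. On the family probe set the difference of HY_low from OT1 was 4.33, 5.27, 4.25 and 4.34 log2 units for numbers 1 to 4, and that of HY_high was 4.17, 4.79, 4.24 and 4.81. On the plain probe set the HY_low difference was 3.70 and 4.45 for numbers 1 and 2, but 1.73 and 1.60 for numbers 3 and 4. The HY_high difference showed the same split, at 4.43 and 3.95 against 2.18 and 2.24. In OT1 arrays 3 and 4 were the brighter ones, and in HY_low and HY_high array 4 was the dimmest. The split was not tested.

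The remaining Trav9d-3 probe set was dim on every array. Values ran from 1.49 to 3.01 on OT1 arrays, from 1.38 to 2.56 on HY_low arrays and from 1 to 2.86 on HY_high arrays, so the groups overlapped. It gives no reading of the segment in either direction.

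The beta segment Trbv13-2, which the HY receptor uses, was read by its plain probe set at 2.45, 2.94, 2.11 and 1.96 on OT1 arrays 1 to 4. The HY_low arrays read 12.04, 11.9, 17.3 and 59.3, and the HY_high arrays 15.7, 38.9, 32.2 and 47.9. All OT1 arrays were dim, and all 8 HY arrays lay above 8. The log2 difference from OT1 was 3.07 ± 0.53 in HY_low and 3.74 ± 0.53 in HY_high. With intensities under 8 set to 8 it was 1.29 and 1.96, so its size depends on how the dim OT1 values are read. HY_low array 4, at 59.3, was the brightest of its group, and without it the HY_low difference was 2.53.

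That array was also the brightest of its group for 2 macrophage genes, Lyz2, which encodes lysozyme, at 13.2, and Apoe, which encodes apolipoprotein E, at 18.5. Over the 7 listed markers of macrophages and dendritic cells summed intensities ran from 15.7 to 20.1 on OT1 arrays, from 21.5 to 50.7 on HY_low arrays and from 19.3 to 23.5 on HY_high arrays. Itgax at 5.86 and C1qa at 2.88 were also highest on that array within HY_low. The other 3 were not, since Csf1r read 5.44 against 11.3 on HY_low array 1, Cd68 read 3.81 against 4.11 there, and C1qb was lowest, at 1. None of the 7 had a geometric mean above 8 in any group, and their part in the values of the plain Trbv13-2 probe set was not tested.

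The Trbv13-2 family probe set went the other way. It read 66.0, 26.9, 244 and 241 on OT1 arrays 1 to 4. HY_low read 34.0, 24.9, 25.6 and 37.2, and HY_high 43.6, 12.1, 34.5 and 38.5. OT1 arrays 3 and 4 stood far above every HY array, while OT1 array 2 lay inside the HY range, so the groups overlapped. OT1 had a geometric mean of 101, HY_low one of 29.97 and HY_high one of 28.9. The log2 difference from OT1 was -1.75 ± 0.63 in HY_low and -1.80 ± 0.63 in HY_high. Without OT1 array 2 these were -2.39 and -2.44, and without OT1 array 3 they were -1.33 and -1.38. The 2 probe sets of 1 beta segment therefore gave opposite directions, with OT1 lower on the plain probe set and higher on the family probe set.

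The gamma segment Trgv1 was bright in all 3 groups and differed by the smallest factor among the members that separated them. OT1 arrays 1 to 4 read 535, 479, 443 and 487. HY_low read 1098, 1426, 1061 and 790, and HY_high read 1354, 1501, 1391 and 1116. The OT1 arrays were close together, with an SD of 0.11 log2 units against 0.35 in HY_low and 0.18 in HY_high. The log2 difference from OT1 was 1.14 ± 0.35 in HY_low and 1.46 ± 0.35 in HY_high, or 2.21-fold and 2.75-fold. It lay between 0.70 and 1.57 over the numbers in HY_low and between 1.20 and 1.65 in HY_high.

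Markers of gamma-delta T cells were given beside Trgv1. Of 4 listed genes 3 were measured, and summed intensities ran from 11.7 to 41.4 on OT1 arrays, from 12.9 to 42.1 on HY_low arrays and from 25.4 to 182 on HY_high arrays. The highest sum came from Blk, a Src family kinase, at 153 on HY_high array 3. Sox13, a transcription factor of gamma-delta T cells, had a geometric mean of 16.4 over the OT1 arrays, 15.7 over HY_low and 20.3 over HY_high, and Il17a, which encodes interleukin-17A, stayed at 1.65 or below as a geometric mean. The part of such cells in the Trgv1 values was not tested.

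The unnamed probe set was the only member with OT1 above HY on every array. On OT1 arrays 1 to 4 it read 219, 37.0, 220 and 101. On the HY_low arrays it read 4.13, 2.39, 5.34 and 3.92, and on the HY_high arrays 2.82, 2.05, 2.22 and 3.64. All 8 HY arrays were dim and all OT1 arrays were not. The log2 difference was -4.93 ± 0.54 in HY_low and -5.47 ± 0.54 in HY_high, and with intensities under 8 set to 8 it was -3.86 in both. OT1 array 2 was the dimmest of its group here, as it was on the Trbv13-2 family probe set. The annotation used does not say which transcript this probe set reads.

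The 5 probe sets that parted HY_low from OT1 without overlap were the 5 that parted HY_high from OT1, and both comparisons share the OT1 arrays. Of all 8695 tested probe sets, 1.63% parted HY_low from OT1 in this way (0.886% with HY_low higher and 0.748% with it lower), and 2.53% parted HY_high from OT1 (1.52% higher and 1.01% lower). Since the members were chosen on these contrasts, nothing is read from that count. Within numbers, 4 members were higher than OT1 for 4 of 4 numbers in both HY groups, and the unnamed probe set and the Trbv13-2 family probe set were lower for 4 of 4. The share of all tested probe sets with 1 direction for 4 of 4 numbers was not taken, so nothing is read from these counts either.

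**Figure D2:**
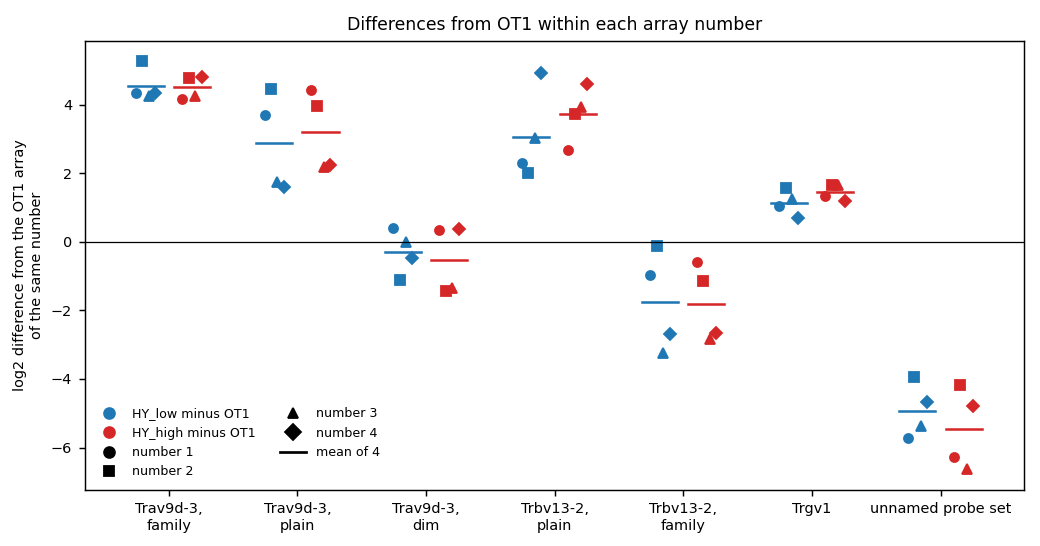
Log2 difference of each HY array from the OT1 array of the same number, for the 7 probe sets; colours give the HY group, symbols the number and bars the mean of the 4 differences. The differences of the Trav9d-3 family probe set lie between 4.17 and 5.27, and those of the plain Trav9d-3 and the family Trbv13-2 probe sets fall apart into numbers 1 and 2 and numbers 3 and 4.

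The comparison of HY_high with HY_low asks whether the receptor segments differed between the higher and the lower peptide dose in cells with the same receptor. None of the 7 probe sets separated the doses, where 2.02% of all tested probe sets did, so nothing is read from that count. The Trav9d-3 family probe set had geometric means of 2883 in HY_high and 2973 in HY_low. The titles also carry different unexplained letters in these groups (ab for HY_low, aa for HY_high), and dose cannot be told apart from what those mark. The arrays are also those of the choice against OT1, which is not fully separate from this comparison.

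By limma 0 of the 7 members passed an adjusted p of 0.05, where 0.023% of all tested probe sets did, and 0 had an unadjusted p under 0.05, where 2.96% did. With the replicate number as a block 0 passed, where 0.345% of all tested probe sets did, and 0 had an unadjusted p under 0.05. With array weights both counts were also 0, where 0.0805% of all tested probe sets passed. The share of all tested probe sets at an unadjusted p under 0.05 was not taken with the block or array weights. Nothing is read from the unadjusted counts there. The groups overlapped for all 7 members, where 2.02% of all tested probe sets did not overlap. With shares this low, 0 of 7 says little about the members, and nothing is read from it. The lowest adjusted p of any member under any alternative was 0.555, for Trgv1 with the block.

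For the Trav9d-3 family probe set the log2 difference of HY_high from HY_low was -0.04 with a 95% interval from -0.997 to 0.91, a ratio between 0.501 and 1.88 (limma adjusted p = 0.9997). On the plain probe set it was 0.33, with an interval from -0.75 to 1.41. The upper bounds correspond to HY_high at 1.88 times HY_low on the first probe set and 2.66 times on the second. For the plain Trbv13-2 probe set the difference was 0.67, from -0.46 to 1.80, and it was 1.20 without HY_low array 4. On the family probe set it was -0.05, from -1.37 to 1.27. These intervals come from the fit without the array number. With the block the SE was 0.20 in place of 0.45 for the Trav9d-3 family probe set. For the plain Trav9d-3 probe set it was 0.37 in place of 0.51.

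Trgv1 was higher in HY_high for 4 of 4 numbers, by 0.30, 0.07, 0.39 and 0.50 log2 units. Its difference was 0.32, with an interval from -0.42 to 1.05, and did not pass (limma adjusted p = 0.9997, or 0.555 with the block). The SE was 0.35, or 0.18 with the block. The unnamed probe set was lower in HY_high for 4 of 4 numbers, with a difference of -0.54 from -1.68 to 0.61, but it was dim on all arrays of both groups. How many of all tested probe sets kept 1 direction for 4 of 4 numbers was not counted, so neither pattern is read as a difference. The 2 groups thus have values side by side that do not differ beyond their spread, which does not show that they are equal.

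**Figure D3:**
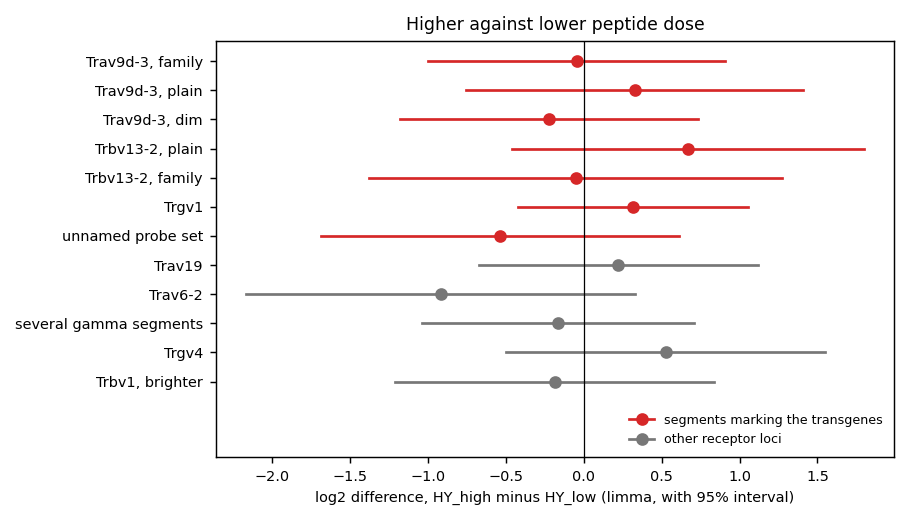
Log2 difference of HY_high from HY_low with its 95% interval (limma, n = 4 per group) for the 7 members and the 5 tested probe sets of other receptor segments. All intervals include 0, and the widest among the members, for the Trbv13-2 family probe set, runs from -1.37 to 1.27.

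The array number carried much of the spread within groups for some members. For the Trav9d-3 family probe set 84.8% of the within-group sum of squares of log2 values lay between numbers, with array 1 on average 0.75 log2 units above its group mean and array 4 lower by 0.59 (mean deviation -0.59). The share was 60.2% for the Trbv13-2 family probe set, 59.3% for the unnamed probe set, 55.8% for Trgv1, 41.6% for plain Trbv13-2, 30.6% for plain Trav9d-3 and 9.59% for the dim Trav9d-3 probe set. Arrays numbered 2 lay lowest on average for the Trbv13-2 family probe set and the unnamed probe set, with mean deviations of -1.14 and -0.89. Control ratios for RNA quality also varied by number, and the 2 controls did not order the numbers alike. Gapdh control probe sets at the 3' end over those at the 5' end gave log2 ratios of 5.60 to 6.26 on arrays numbered 2, 2.95 to 3.27 on arrays numbered 4, and 4.57 to 5.48 on the rest. The same ratio for actin was 2.02 to 2.99 on arrays numbered 2, 2.15 to 2.54 on those numbered 4, 2.59 to 3.60 on those numbered 1 and 2.74 to 3.39 on those numbered 3. The Gapdh ratio averaged 4.62 over OT1, 4.80 over HY_low and 4.55 over HY_high arrays, the actin ratio 2.86, 2.63 and 2.63, and their part in the values was not tested.

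Other T cell receptor segments were named in the annotation of 7 further probe sets. They were the ones left after the members that moved had been set aside, so they are no independent sample of the loci. Of these 7, 5 passed the filter on dim probe sets. A search by symbol found no probe set for Trav14 or Trbv12 segments, the families of the OT1 receptor, or for constant regions.

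The brightest was a probe set annotated to Trbv1, another beta variable segment. That symbol may not be specific to the segment, so the values are not read as its level. It read 5972, 1880, 2687 and 2706 on OT1 arrays 1 to 4. HY_low read 7875, 2717, 2458 and 2553, and HY_high 5090, 2545, 2468 and 2506. Array 1 stood above the rest in each group, and the groups overlapped. The log2 difference from OT1 was 0.18 ± 0.48 in HY_low and -0.01 ± 0.48 in HY_high (limma adjusted p = 0.99996 and 0.9999). The second Trbv1 probe set was at 4.57 or below on all arrays.

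Trgv4, a gamma variable segment like Trgv1, had a geometric mean of 98.4 in OT1, 88.1 in HY_low and 127 in HY_high. Its log2 difference from OT1 was -0.16 ± 0.49 in HY_low and 0.37 ± 0.49 in HY_high (limma adjusted p = 0.99996 and 0.9999). A further probe set, annotated to more than 1 gamma segment, had 207 in OT1, 262 in HY_low and 234 in HY_high. Neither separated the groups. Whether Trgv1 differed more from OT1 than these did was not tested.

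The alpha segments Trav19, Trav6-2 and Trav12n-1 were dim on all arrays, with highest values of 3.27, 6.81 and 4.75. Over the 5 tested probe sets, 0 passed in any of the 3 comparisons by limma, and 0 had an unadjusted p under 0.05. With the block both counts were also 0, and with array weights 0 passed and 1 had an unadjusted p under 0.05, in HY_low against OT1. For these fits the share of all tested probe sets at that unadjusted p was not taken, so nothing is read from those counts. Of all tested probe sets, 0.023% passed for HY_low against OT1 (0.092% with the block, 0.046% with array weights, and 2.65% at an unadjusted p under 0.05) and 0.173% for HY_high against OT1 (1.36%, 0.736% and 4.08%). The median log2 difference of the 5 was 0.18 in HY_low against OT1 and 0.07 in HY_high against OT1, where all tested probe sets had 0.01 and 0.02.

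**Figure D4:**
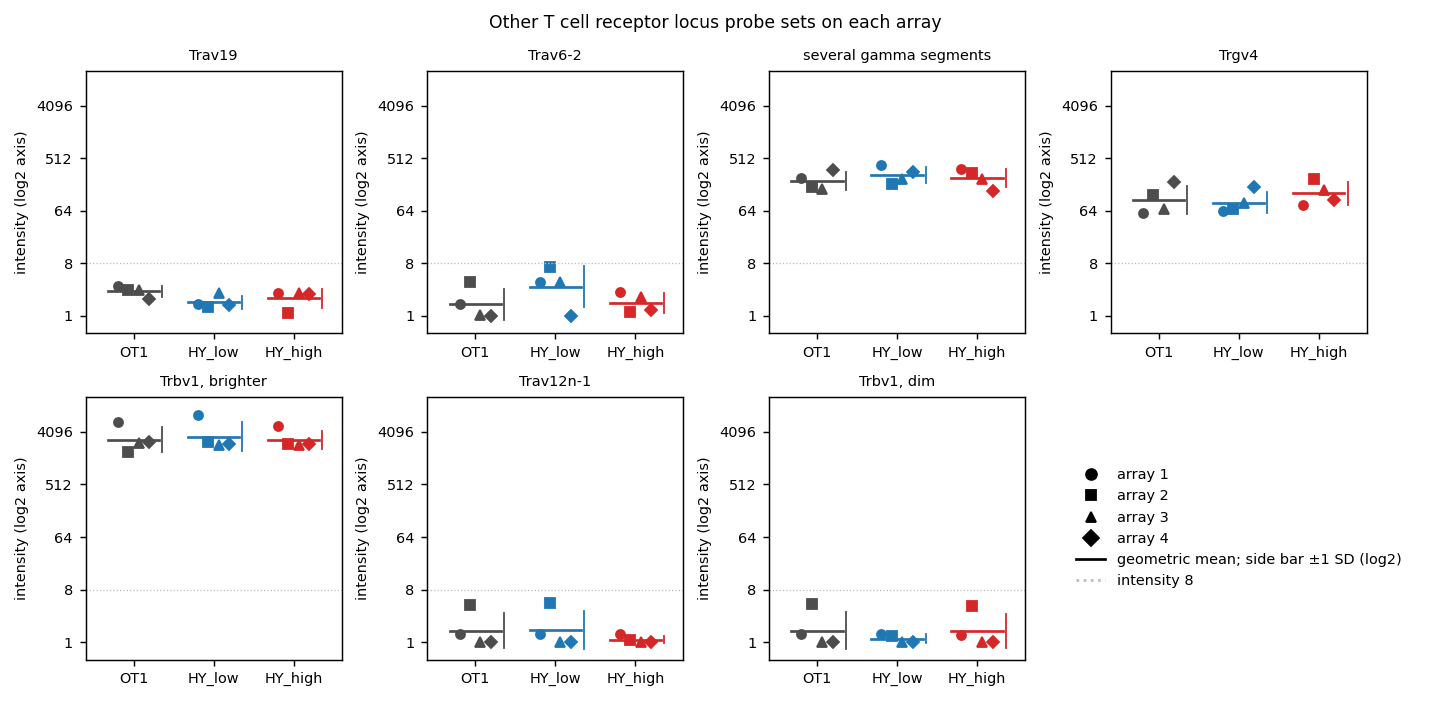
Deposited intensity (log2 axis) of the 7 probe sets of other receptor segments on each of the 12 arrays, by group; symbols give the array number, horizontal bars the geometric mean and side bars 1 SD of the log2 values. The brighter Trbv1 probe set is highest on array 1 of each group (5972, 7875 and 5090), and 4 of the 7 probe sets stay under 8 throughout.

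The receptor reaches the surface only with the CD3 chains, and it signals through the kinases Lck, Fyn and Zap70 and the coreceptors. Of 17 genes listed for this complex and its proximal signalling 15 were measured and tested. In HY_low against OT1 0 of the 15 passed by limma (0 with the block), where 0.023% of all tested probe sets did (0.092% with the block). Their median log2 difference was -0.00 beside 0.01 for all tested probe sets. The smallest p were those of the adaptor Lat, the chain Cd3e and the costimulatory receptor Cd28, with differences of -0.54 ± 0.51, 0.46 ± 0.45 and -0.52 ± 0.53 (adjusted p = 0.99996 for each).

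In HY_high 1 gene of the 15 fell, both against OT1 and against HY_low. It was Cd8b1, the beta chain of the CD8 coreceptor, with a geometric mean of 693 in OT1, 644 in HY_low and 4.52 in HY_high. Its log2 difference was -7.26 ± 0.75 from OT1 (limma adjusted p = 6.8e-05) and -7.15 ± 0.75 from HY_low (limma adjusted p = 0.000252). The HY_high arrays read 8.18, 1, 6.18 and 8.26, at or near the dim range, so the size depends on how dim values are read. With intensities under 8 set to 8 the differences were -6.42 and -6.31 (limma adjusted p = 0.00194 and 0.00291). Of all tested probe sets 0.0345% fell against OT1 and 0.0115% against HY_low. The same arrays held Trav9d-3 at 2312 to 4386 on its family probe set, and a link between it and Cd8b1 was not tested. The median over the 15 genes was -0.12 against OT1 and -0.24 against HY_low, beside 0.02 and 0.01 for all tested probe sets.

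Next in order against OT1 were Cd8a, the alpha chain of CD8, at -1.11 ± 0.58, and Cd28 at -0.81 ± 0.53. Against HY_low they were Cd8a at -1.11 ± 0.58 and Cd5, a negative regulator of receptor signalling, at -0.76 ± 0.66. None of these passed (limma adjusted p = 0.9999 against OT1 and 0.9997 against HY_low). Cd3g, the gamma chain of CD3, had geometric means of 184 in OT1, 273 in HY_low and 231 in HY_high.

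Genes listed for recombination did not pass in these comparisons. Of 9 listed recombination genes 7 were measured and 6 tested, and 0 passed in any comparison by limma or with the block. Ptcra, which does not join segments, was among the 6 and is also in the receptor complex list. Over all tested probe sets 0.023% passed in HY_low against OT1 (0.092% with the block). In HY_high 0.173% passed against OT1 (1.36% with the block) and 0.023% against HY_low (0.345% with the block). In HY_low against OT1 the smallest p were those of the end-joining factors Xrcc5 and Xrcc6 and of Dntt, the enzyme that adds bases at the joints. Their log2 differences were -1.17 ± 0.55, 0.52 ± 0.60 and -0.15 ± 0.48 (limma adjusted p = 0.99996 for each). In HY_high Dntt was at 3.67, against 10.1 in OT1 and 9.13 in HY_low. Rag1, a subunit of the recombinase, was at 2.58, against 6.98 and 7.00. Their differences from OT1 were -1.46 ± 0.48 and -1.44 ± 0.48 (limma adjusted p = 0.615 and 0.658), and Xrcc5 had -0.30 ± 0.55 (0.9999). From HY_low they were -1.32 ± 0.48 and -1.44 ± 0.48, and Xrcc5 had 0.87 ± 0.55 (0.9997 for each). The median over the 6 was -0.05 in HY_low against OT1, -0.24 in HY_high against OT1 and -0.25 in HY_high against HY_low.

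Most of the listed thymocyte markers lay above the dim range. Of 8 listed genes 7 were measured, and 5 had a geometric mean above 8 in each of the groups. Those 5 were Cd3d, Cd3e, Cd3g, Cd8a and Thy1, which mature T cells also carry, so they do not tell thymocytes from other T cells. The dim ones were Cd4, with geometric means between 4.68 and 6.18, and Rag1, with geometric means between 2.58 and 7.00. The summed intensity of the 7 ran from 1224 to 1624 on OT1 arrays, from 1029 to 2028 on HY_low arrays and from 672 to 1208 on HY_high arrays, so all HY_high arrays lay below all OT1 arrays. The median log2 difference of the 7 was 0.04 in HY_low against OT1, -0.35 in HY_high against OT1 and -0.25 in HY_high against HY_low. By limma 0 of the 7 passed in any comparison. The share of all tested probe sets that passed was 0.173% in HY_high against OT1 and 0.023% in each of the others. With the block 1 fell in HY_high against both other groups, the surface glycoprotein Thy1, with a geometric mean of 541 in OT1, 555 in HY_low and 234 in HY_high. Its log2 difference was -1.21 ± 0.43 from OT1 (limma adjusted p = 0.788, or 0.00564 with the block) and -1.24 ± 0.43 from HY_low (0.9997, or 0.0126). Of all tested probe sets 1.36% passed with the block in HY_high against OT1 and 0.345% in HY_high against HY_low, in either direction.

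Of the other cell types, B cell markers summed to 14.9 to 32.03 in OT1, 15.7 to 39.8 in HY_low and 25.1 to 52.7 in HY_high (4 of 5 genes measured). NK cell markers summed to 50.8 to 209, 11.6 to 116 and 95.6 to 325 (3 of 4), nearly all of it from Klrd1, a subunit of an NK receptor that had 198 in HY_high as a geometric mean. Markers of thymic epithelium and stroma summed to 34.1 to 60.0, 39.2 to 61.1 and 36.5 to 52.4 (7 of 7), and erythroid markers to at most 17.6 on any array (2 of 4). The part of these and of the thymocyte markers in the receptor values was not tested.

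The members could be set beside genes with a like pattern over the 12 arrays. For each member above the dim range in a group, the 3 tested probe sets with the highest Pearson correlation of log2 values were taken. The arrays share groups and numbers, so the correlations describe these arrays and carry no test. Nearest to the Trav9d-3 family probe set were Cd200, a surface ligand that restrains myeloid cells, at r = 0.910, Nr4a2, a nuclear receptor induced by receptor signalling, at 0.871, and the interferon-induced Mx2 at 0.862. All were dim in OT1, with geometric means of 1.45, 1.63 and 3.94, and Cd200 did not pass 4.79 in a group.

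Nearest to the plain Trav9d-3 probe set were Ankrd46 (r = 0.935), Agfg1 (0.908) and Mob1b (0.892). Of these Agfg1 was the brightest, at 53.7 in OT1, 129 in HY_low and 112 in HY_high. For the plain Trbv13-2 probe set they were Xcl1, a chemokine of activated lymphocytes (r = 0.873), Pts (0.862) and Ms4a4c (0.861). Xcl1 had 4.09 in OT1, 10.3 in HY_low and 24.0 in HY_high. For Trgv1 they were Cpd (0.925), Cd200 (0.893) and the inhibitory receptor Lag3 (0.861), the last at 2.05, 5.07 and 8.18.

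The members that were higher in OT1 shared a neighbour. St6galnac2, a sialyltransferase, had the highest correlation with the unnamed probe set (r = 0.888) and the second highest with the Trbv13-2 family probe set (0.842), with geometric means of 18.4 in OT1, 3.28 in HY_low and 2.03 in HY_high. The others were Gucd1 (0.919) and Thra (0.833) for the Trbv13-2 family probe set, and Hsd3b1 (0.822) and Ctnnd2 (0.822) for the unnamed probe set. Gucd1, Thra and Hsd3b1 were dim in every group, with geometric means of at most 3.50, 2.68 and 4.73, each in OT1. Among the members themselves, Trgv1 followed the family Trav9d-3 probe set with r = 0.940 and the plain with r = 0.914 over the 12 arrays. The 2 Trav9d-3 probe sets that separated the groups had r = 0.880 with each other, and the 2 Trbv13-2 probe sets r = -0.68. The choice of members for their group differences sets much of these values.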

How the data were processed

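The authors deposited 1 table of linear intensities for 12488 probe sets on 12 arrays. Background correction, summary and scaling steps are not stated in the labels. An intensity of 1, the minimum, was taken by 15.3% of values, and array medians were 3.33 to 3.97, so arrays were used without further scaling. After 66 control probe sets were left out, values were put on a log2 scale, and the 8695 probe sets with a mean above the 30th percentile (an intensity of 1.76) were tested. Symbols came from the platform's annotation, updated by gene ID with RefSeq's table for GRCm38.p6; no positions are reported because the table names no build.

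Group means were fitted with limma 3.58.1 in R 4.3.3, with 9 residual degrees of freedom and an intensity trend. All p-values are two-sided and were adjusted by Benjamini and Hochberg's method across the tested probe sets. The script was tested on simulated data. Over all tested probe sets, deviations from group means correlated at 0.341 to 0.593 between the 12 pairs of same-numbered arrays and at -0.40 to 0.163 between the 36 others, so the numbers pair the arrays as the data show, though the labels do not state it. The block fit, with array number as a further factor, left 6 residual degrees of freedom. All SEs and intervals given, those in figures included, come from the fit without it unless the block is named.

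The members and gene lists were chosen with earlier results of these data known. Named genes were all members, other receptor-locus probe sets that passed or were constant, Trav14 or Trbv12 segments, list genes that passed or had the 3 smallest p, and the 3 probe sets with 1 symbol most correlated with each member whose geometric mean was above 8 in a group. No other receptor-locus probe set met that rule. Such probe sets were described in addition, chosen after their values were seen. Each list gene was read by its brightest probe set with 1 symbol. Alternatives covered the block, 2 normalizations, 2 filters, floors at 8 and 16, array weights, no trend, 2 groups in the fit and left-out arrays.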

Additional observations from a re-analysis of the deposited data

Results flagged for a closer look

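Among 42 sets of 4 arrays (14 receptor probe sets in 3 groups) 4 had an array far from the rest of its group, by the gap to its nearest neighbour over the range of log2 values. Chance flags about 1 in 20 such sets. The plain Trav9d-3 probe set read 1175 on HY_high array 4, below the 1896 to 2066 of the other HY_high arrays. The brighter Trbv1 probe set read 7875 on HY_low array 1 and 5090 on HY_high array 1, above the rest of each group. Trav19 read 1.12 on HY_high array 2, a dim value.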

How the results depend on the processing

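The 21 log2 differences of the members were recomputed under 26 alternatives, 10 other settings and 16 with arrays left out; 4 of the latter, without the 3 arrays of a number, were chosen after seeing the data. Of 537 values obtained, 529 stayed within the spread between replicates or on the same side of the threshold. With the floors at 8 and 16 the dim Trav9d-3 probe set gave no value. The 8 that moved came from the floors, which raise dim values by construction. For the plain Trbv13-2 probe set a floor of 8 gave 1.29 in HY_low against OT1 and 1.96 in HY_high against OT1, and a floor of 16 gave 0.50 and 0.97. For the unnamed probe set they gave -3.86 and -2.86 in both comparisons. In HY_high against HY_low no member passed under any alternative.

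Counts over all tested probe sets moved more. With the replicate block they were 8 in HY_low against OT1, 118 in HY_high against OT1 and 30 in HY_high against HY_low, in place of 2, 15 and 2; the block changed no call of a member in HY_high against HY_low or of another receptor segment. Array weights gave 4, 64 and 7. The floor at 16 gave 1, 8 and 4, and the floor at 8 gave 8 and 4 in the last 2 comparisons. Without the filter the last 2 were 9 and 0, and in HY_high against HY_low scaling to a common median gave 1, as did the stricter filter at the 50th percentile. With arrays left out the counts were 2 to 3, 3 to 17 and 1 to 4. No other receptor segment passed under any of the 26 alternatives. The cause of these shifts was not tested.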
